A study of Mus musculus with 4 samples.

Results

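Ribosome biogenesis genes and subunits of RNA polymerases I and III were followed in macrophages in which Adcy7 had been targeted. The 38 genes were chosen by name, as nucleolar processing factors and polymerase subunits, from the 55401 genes of the count table, and each had a row there. The choice was made with earlier results of these data known. Poly(A) RNA was sequenced from bone marrow-derived macrophages, obtained by differentiating marrow of C57BL/6J mice in culture. In 2 libraries the marrow cells had received CRISPR-Cas9 lentivirus aimed at Adcy7, the gene of an adenylyl cyclase that makes cyclic AMP (Adcy7 knockout), and in 2 libraries the same kind of virus aimed at Rosa, a locus commonly used as a neutral target (Rosa control). Both groups had the same virus dose (multiplicity of infection 30, given on day 1), the same 5 days of differentiation and the same batch number, 1. The cultures were bulk cultures, and the labels do not state clones, guides, the share of edited cells or whether replicates came from separate mice, so the p-values rest on a spread among libraries that may be technical alone.

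Ribosomes are built in the nucleolus. RNA polymerase I transcribes the long precursor of the large ribosomal RNAs, and RNA polymerase III makes the small ribosomal RNA and the transfer RNAs. Small nucleolar RNPs (snoRNPs) then modify and cut the precursor, and separate sets of assembly factors shape the small and the large subunit. Output of this pathway usually follows growth and division, and the transcription factor Myc is a known activator of many of its genes.

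The libraries held 71914179 and 61782358 counts in the knockout and 65766496 and 69874955 in the control. Adcy7 was at 59.4 and 58.8 CPM (counts scaled to a common library total) in the knockout libraries, against 122 and 125 CPM in the control libraries, or 48.4% of the control level (adjusted p = 4.6e-06), so its mRNA was lower but present. The macrophage label was checked against 12 markers. All 12 were detected in the control. In the knockout 10 fell, 1 (Cd14) rose and Cd68 did not pass, with a summed level of 23150 to 23370 CPM, against 58490 to 60410 CPM in the control, and C1qa, a complement gene of macrophages, was at 0 in knockout replicate 2. Markers of other cells were also read. Their summed levels were 221 to 279 CPM for 6 eosinophil genes in the knockout, against 30.8 to 33.8 CPM in the control, with 4 of 5 tested genes higher. For 8 mast cell and basophil genes the sums were 32.69 to 33.55 CPM in the knockout and 2.72 to 3.06 CPM in the control, with 6 of 6 higher. For 10 platelet and erythroid genes they were 305 to 345 CPM in the knockout and 183 to 199 CPM in the control, with 8 of 9 higher. For 7 B cell genes they were 38.35 to 41.1 CPM in the knockout and 27.1 to 28.1 CPM in the control, with 5 of 6 higher and 1 (Cd79b) lower. For 8 stromal genes they were 44.2 to 50.3 CPM in the knockout and 2.13 to 2.98 CPM in the control, with 3 of 6 higher, or 5 without control replicate 1. Neutrophil genes summed to 5288 to 6745 CPM in the knockout and 5970 to 7297 CPM in the control, with 5 of 10 lower and 0 higher. T cell genes summed to 2.44 to 2.95 CPM in the knockout and 3.42 to 4.29 CPM in the control. Of 3 tested T cell genes 1 was lower. The other 2 did not pass, with both knockout libraries above both control libraries and log2 fold changes up to 2.05. Cma1 of mast cells, Gzma of T cells and Lepr of stromal cells were at 0 in all 4 libraries. The part of these cells in the results that follow was not tested.

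Ribosome biogenesis mRNAs were moderately higher in the Adcy7 knockout. Of the 38 members, all of which passed the filter on low counts, 19 rose, 3 fell and 16 did not pass an adjusted p of 0.05. Of all 15832 genes tested, 49.6% passed, with 25% that rose and 24.6% that fell, so the members rose at a share of 50% and fell at a share of 7.89%. Their median log2 fold change was 0.33, against 0.01 over all tested genes. The members summed to 1427 and 1467 CPM in the knockout libraries, against 1285 and 1258 CPM in the control libraries. Both knockout libraries lay above both control libraries for 25 members and below them for 5, against 37.4% and 37.8% of all tested genes. At least a 2-fold rise that passed was seen in 4 of the 38 members, against 11.8% of all tested genes. These were Gnl3, Polr3d, Rrs1 and Rrp9. At least a 2-fold fall that passed was seen in Polr3gl alone, against 10.3% of all tested genes. The median log2 fold change of the members was 0.3 without control replicate 1 and 0.39 without control replicate 2. Standard errors were larger in these fits, as for Polr1a, at 0.2 in both, against 0.11 with all libraries. The count of rises was lower in them. It was 11 without control replicate 1 and 10 without control replicate 2, when 2947 of 16815 and 2988 of 16843 genes rose in all. The 10 rises that kept their call under all 12 other settings, those with 1 library left out included, were Polr1a, Polr3d, Rrp9, Nop14, Nol6, Wdr75, Utp20, Nop2, Rrs1 and Gnl3, and Polr3gl was the 1 fall that did. In RNA from whole cultures, fewer cells of a type and less RNA per cell cannot be told apart.

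**Figure D1:**
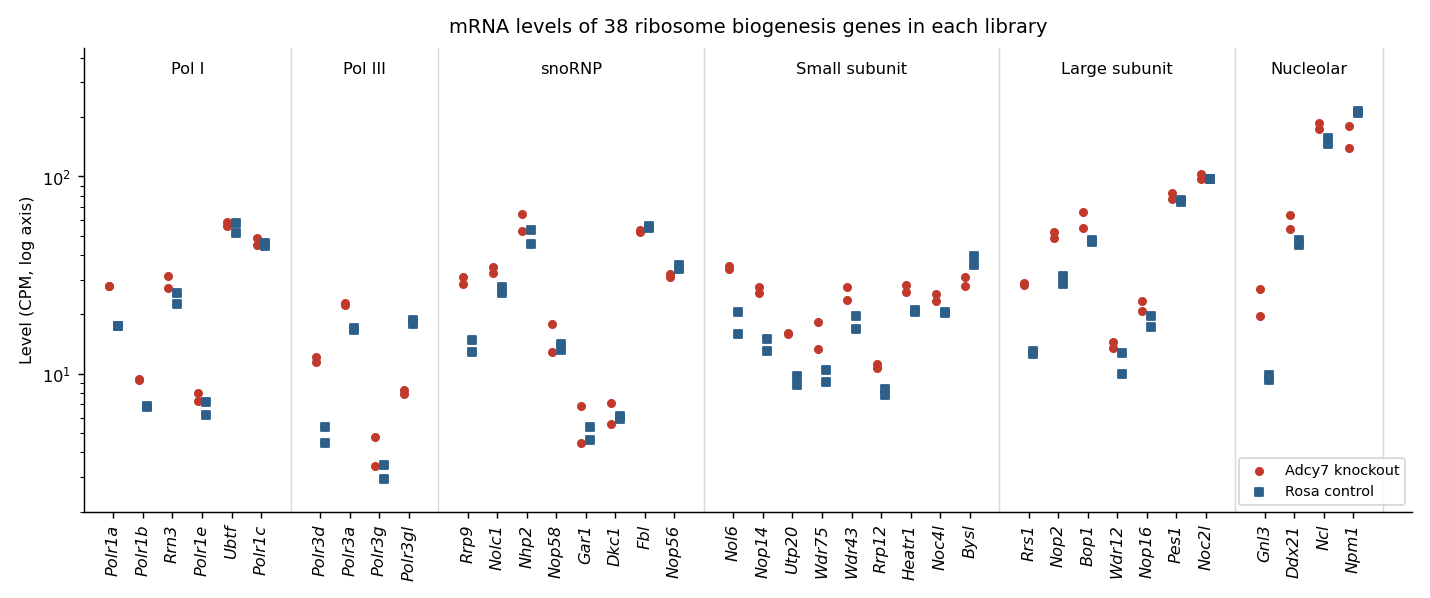
Level of each of the 38 members in CPM on a log axis, by role, with 1 point per library (red circles, Adcy7 knockout; blue squares, Rosa control). Within each role the genes run from the largest to the lowest fold change. The red points lie above the blue ones for 25 members, and below them for Polr3gl, Bysl, Npm1, Fbl and Nop56.

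**Figure D2:**
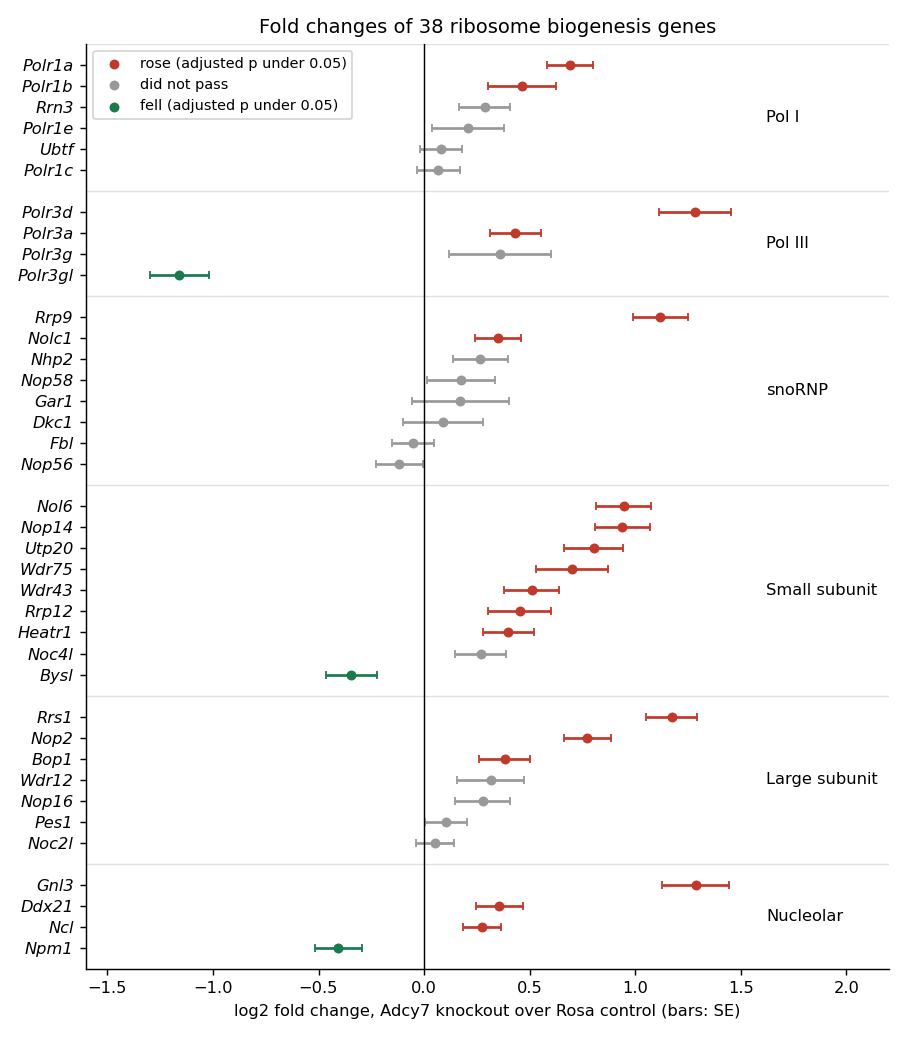
Fold change of each member on the log2 scale, Adcy7 knockout over Rosa control, with its standard error as a bar, coloured by the outcome of edgeR's quasi-likelihood test. The small subunit group has 7 rises among 9 genes, and the snoRNP group 2 among 8, where 25% of all tested genes rose.

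In polymerase I the catalytic subunits rose, and the other 4 members did not pass. Polr1a, the largest catalytic subunit, was at 27.7 and 27.9 CPM in the knockout libraries, against 17.39 and 17.43 CPM in the control libraries. The replicates nearly coincided and the groups were well apart, at 1.61-fold higher (log2 fold change 0.69, SE 0.11, adjusted p = 0.000483). Polr1b, which forms the catalytic centre with Polr1a, was at 9.40 and 9.27 CPM in the knockout and 6.78 and 6.90 CPM in the control, 1.38-fold higher (adjusted p = 0.03). Its call was lost with DESeq2 (adjusted p = 0.0566) and without knockout replicate 1, control replicate 1 or control replicate 2. Rrn3, which brings the enzyme to the promoter, was at 27.1 and 31.3 CPM in the knockout and 22.7 and 25.6 CPM in the control, and did not pass (log2 fold change 0.29, SE 0.12, adjusted p = 0.0763), though it did without knockout replicate 1 (log2 fold change 0.37, adjusted p = 0.0307). Ubtf, the factor that keeps ribosomal DNA open, had a log2 fold change of 0.08 (SE 0.10), and its groups overlapped. Polr1c, a subunit that polymerases I and III share, had 0.07 (SE 0.10), also with overlapping groups. Polr1e, a subunit of polymerase I, had 0.21 (SE 0.17) and did not pass. Of 9 other genes of the polymerase I machinery, 4 rose and 1 fell. The shares were 44.4% that rose and 11.1% that fell, against 25% and 24.6% of all tested genes. The rises included Taf1c, a subunit of the promoter selectivity factor, at 17.3 and 14.1 CPM in the knockout and 8.42 and 7.97 CPM in the control. The fall was Polr1d, the partner of Polr1c, at 68.5 and 64.4 CPM in the knockout and 95.1 and 81.2 CPM in the control (log2 fold change -0.39, SE 0.11, adjusted p = 0.01). Taf1d, another of the 9, did not pass (log2 fold change -0.28, SE 0.14, adjusted p = 0.113). Without the filter on low counts 1 of the 9 rose. Without knockout replicate 2, 2 rose and 2 fell, and without control replicate 1, 2 rose and 0 fell.

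Within polymerase III, Polr3gl fell and its paralog Polr3g did not pass. Polr3g and Polr3gl code for alternative versions of the same subunit, of which, in mammals, the Polr3g form is known from embryonic and dividing cells and the Polr3gl form from most differentiated tissues. Polr3gl was at 7.90 and 8.32 CPM in the knockout libraries, against 18.75 and 17.83 CPM in the control libraries. It was the only member at or below a halved level, at 44.8% of the control (log2 fold change -1.16, SE 0.14, adjusted p = 3.85e-05). Polr3g was at 3.42 and 4.775 CPM in the knockout and 2.935 and 3.449 CPM in the control, so that the groups overlapped (log2 fold change 0.36, SE 0.24, adjusted p = 0.246). With 1 library left out, the log2 fold change of Polr3g ran from 0.14 without knockout replicate 2 to 0.57 without knockout replicate 1, and it passed in none of these fits. Within a library, Polr3g CPM was 43.3% and 57.4% of Polr3gl CPM in the knockout, against 15.7% and 19.3% in the control. The log2 ratio differed by 1.52 (knockout minus control), with every knockout library above every control library. A two-sided exact permutation test over the 4 libraries gave p = 0.333, the smallest it can give with 2 against 2. Per kilobase of annotated exon, Polr3gl was at 5.08 CPM in the knockout and 11.45 in the control and Polr3g at 1.04 in the knockout and 0.811 in the control, so Polr3gl remained the more abundant of the pair in both groups.

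The promoters of the pair are shown because these paralogs are alternatives in the same enzyme and 1 of them fell. They are RefSeq promoters of build GRCm38.p6, each with 250 bases before and 50 bases after the annotated start, written 5′ to 3′ on the gene's strand. Capitals mark CACGTG, the E-box letters that Myc can bind, and GGGCGG or its reverse complement CCGCCC, the GC box letters that Sp factors can bind.
Polr3gl (chr3:96594132-96594431, minus strand): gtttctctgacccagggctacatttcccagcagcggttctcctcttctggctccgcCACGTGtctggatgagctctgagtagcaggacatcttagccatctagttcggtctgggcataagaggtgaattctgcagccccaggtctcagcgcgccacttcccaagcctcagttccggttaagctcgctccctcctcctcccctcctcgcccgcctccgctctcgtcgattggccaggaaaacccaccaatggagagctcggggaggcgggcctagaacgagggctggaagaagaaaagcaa
Polr3g (chr13:81710964-81711263, minus strand): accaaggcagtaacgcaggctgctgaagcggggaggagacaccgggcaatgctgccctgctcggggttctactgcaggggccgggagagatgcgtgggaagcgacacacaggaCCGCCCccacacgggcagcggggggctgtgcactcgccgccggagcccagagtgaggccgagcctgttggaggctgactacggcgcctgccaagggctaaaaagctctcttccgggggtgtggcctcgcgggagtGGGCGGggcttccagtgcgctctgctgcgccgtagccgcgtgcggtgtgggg
The Polr3gl window held 1 CACGTG, beginning 194 bases before the start, and no GC box letters, while the Polr3g window held GC box letters at 2 places and no CACGTG. These matches describe the letters only.

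**Figure D3:**
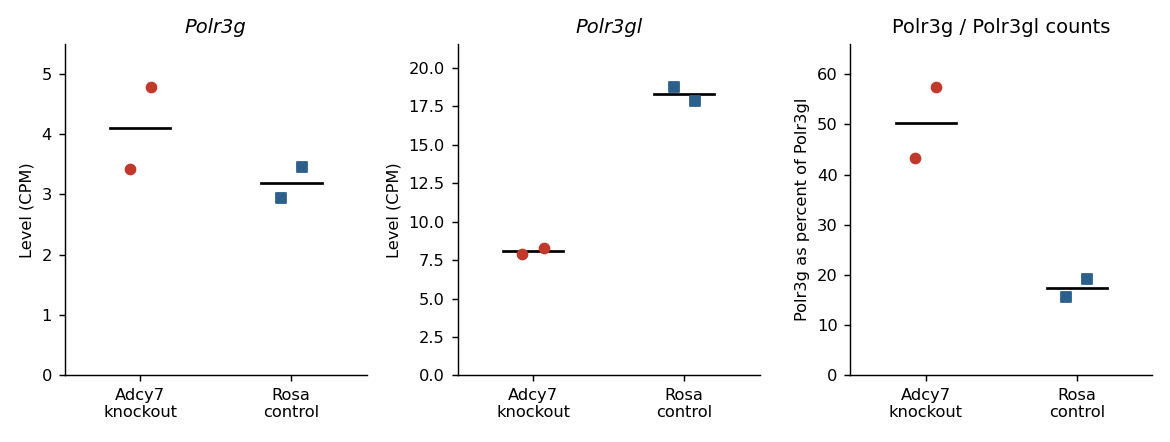
Levels of Polr3g and Polr3gl in CPM (left and middle) and Polr3g as a percent of Polr3gl within each library (right), with 1 point per library and the group mean as a line, for Adcy7 knockout (red circles) and Rosa control (blue squares). Polr3gl lies at 7.90 and 8.32 CPM in the knockout, below 18.75 and 17.83 CPM in the control, while the Polr3g points overlap.

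The other polymerase III members rose. Polr3d, a subunit that takes part in termination and reinitiation, was at 11.5 and 12.1 CPM in the knockout libraries, against 5.40 and 4.44 CPM in the control libraries, 2.43-fold higher (log2 fold change 1.28, SE 0.17, adjusted p = 8.3e-05). Polr3a, the largest catalytic subunit, was at 22.4 and 22.8 CPM in the knockout and 16.65 and 17.2 CPM in the control, 1.35-fold higher (adjusted p = 0.0109), and lost its call without control replicate 1 or control replicate 2. Of 23 further polymerase III genes 4 rose, 1 fell and 18 did not pass. The share that rose was 17.4%, against 25% of all tested genes, and the median log2 fold change of the 23 was 0.05. Bdp1, a subunit of the initiation factor that holds polymerase III on its genes, stood far from the others, at 55.7 and 64.5 CPM in the knockout and 11.9 and 13.1 CPM in the control, 4.84-fold higher (adjusted p = 8.94e-08). Polr3c, the subunit that Polr3g and Polr3gl contact, fell to 50.3 and 48.7 CPM in the knockout, against 61.35 and 60.8 CPM in the control (adjusted p = 0.03), a call lost without control replicate 1 or 2. Maf1, the repressor of polymerase III, was at 135 and 132 CPM in the knockout and 118 and 117 CPM in the control and did not pass (adjusted p = 0.0865).

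The core snoRNP proteins did not pass the test. Box C/D particles methylate ribosomal RNA through Fbl, held by Nop56 and Nop58. Fbl was at 53.7 and 52.0 CPM in the knockout libraries and 54.6 and 56.2 CPM in the control libraries (log2 fold change -0.05, SE 0.10), and Nop56 had a log2 fold change of -0.12 (SE 0.11) and Nop58 of 0.17 (SE 0.16). Box H/ACA particles convert uridine to pseudouridine through Dkc1, with Gar1 and Nhp2 as partners. Their log2 fold changes were 0.09 (SE 0.19), 0.17 (SE 0.23) and 0.27 (SE 0.13) in that order. None of these 6 genes passed, 4 of them had overlapping groups, and the knockout libraries differed from each other by 24.1% of their mean in Dkc1, 32.1% in Nop58 and 42.5% in Gar1. Of these 6, Nop58 passed without knockout replicate 1 (log2 fold change 0.38, adjusted p = 0.0443). Nhp2 passed without knockout replicate 2 (log2 fold change 0.43, adjusted p = 0.00452) and was at 0.09 without knockout replicate 1. The other 2 members of this role rose. Rrp9, a protein of the U3 particle that starts cleavage of the precursor, was at 31.0 and 28.6 CPM in the knockout libraries, against 14.9 and 12.9 CPM in the control libraries, 2.17-fold higher (log2 fold change 1.12, SE 0.13, adjusted p = 2.98e-05). Nolc1, a chaperone of snoRNPs, was at 34.8 and 32.4 CPM in the knockout and 27.7 and 25.7 CPM in the control, 1.27-fold higher (adjusted p = 0.0232), a call lost without the filter on low counts (adjusted p = 0.0578) and without knockout replicate 1, control replicate 1 or control replicate 2. Among 12 tested genes of snoRNP assembly and partners, 2 rose and 2 fell. Each share was 16.7%, against 25% of all tested genes that rose and 24.6% that fell. Shq1 and Naf1, which assemble H/ACA particles, rose 1.67-fold and 1.54-fold, and Tcof1, a nucleolar partner of polymerase I, fell by 0.60 on the log2 scale (SE 0.11). Without control replicate 2, 1 rose and 1 fell.

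Most factors of the small subunit rose. The 9 members summed to 210 and 212 CPM in the knockout libraries, against 157 and 157 CPM in the control libraries, and 7 rose, 1 fell and 1 did not pass, where 25% of all tested genes rose. Nop14 and Nol6, structural proteins of the large particle that forms on the nascent precursor, changed alike. Nop14 was at 25.6 and 27.6 CPM in the knockout and 13.05 and 14.96 CPM in the control, 1.92-fold higher (log2 fold change 0.94, SE 0.13, adjusted p = 0.000119). Nol6 was at 35.3 and 34.1 CPM in the knockout and 20.5 and 15.99 CPM in the control, 1.93-fold higher (log2 fold change 0.95, SE 0.13, adjusted p = 0.000135). In neither gene did the groups come near each other. Utp20, a long scaffold protein, was at 15.96 and 16.14 CPM in the knockout and 8.82 and 9.75 CPM in the control, 1.75-fold higher (adjusted p = 0.000683). Wdr75 and Wdr43, WD-repeat proteins that load onto the precursor early, rose 1.63-fold (SE 0.17 on the log2 scale, adjusted p = 0.0056) and 1.42-fold (SE 0.13, adjusted p = 0.00657). The call of Wdr43 was lost without control replicate 2. Heatr1, of the same early complex, and Rrp12, which helps export the particle, rose 1.32-fold and 1.37-fold. Both lost their call without control replicate 1 or control replicate 2, and Rrp12 also without knockout replicate 1. Noc4l, the partner of Nop14, was at 25.3 and 23.45 CPM in the knockout and 20.6 and 20.4 CPM in the control and did not pass (adjusted p = 0.0818).

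Bysl was the small subunit factor that fell. It acts late in maturation, and stood at 30.8 and 27.9 CPM in the knockout libraries, against 35.7 and 39.7 CPM in the control libraries (log2 fold change -0.34, SE 0.12, adjusted p = 0.0315). The call was lost without the filter on low counts (adjusted p = 0.0823), without knockout replicate 2 and without control replicate 2. Its exons share 361 bases, or 9.4% of their length, with Ccnd3 on the opposite strand. Ccnd3, a cyclin gene, was at 214 and 210 CPM in the knockout and 436 and 403 CPM in the control (log2 fold change -0.97, SE 0.09), and with no strand method named its reads may not be told apart from those of Bysl there. Of 37 other small subunit genes, 16 rose, 2 fell and 19 did not pass. The shares were 43.2% that rose and 5.41% that fell, against 25% and 24.6% of all tested genes. Rcl1, a protein of the cleavage step, was at 54.2 and 53.1 CPM in the knockout and 7.16 and 6.755 CPM in the control, 7.79-fold higher (adjusted p = 1.31e-08). Imp4, which binds the U3 RNA, rose 1.90-fold, and Utp3 fell to 30.7 and 38.4 CPM in the knockout, against 56.75 and 53.35 CPM in the control. Without the filter on low counts 11 of the 37 rose and 2 fell. The median log2 fold change of the 37 was 0.21. It was 0.18 without knockout replicate 2, and 0.23 and 0.26 without control replicate 1 and 2.

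The large subunit members ranged from close to the control level to more than 2-fold higher. Rrs1, which brings the small ribosomal RNA into the particle, was at 29.0 and 28.2 CPM in the knockout libraries, against 13.0 and 12.6 CPM in the control libraries. Its replicates differed little, and it was 2.26-fold higher (log2 fold change 1.17, SE 0.12), with the smallest adjusted p of the 38 members, 1.3e-05. Nop2, a methyltransferase of ribosomal RNA, was at 52.2 and 48.9 CPM in the knockout and 31.3 and 28.5 CPM in the control, 1.71-fold higher (adjusted p = 0.000135). Bop1, Pes1 and Wdr12 form 1 complex that is needed to process the precursor, and their values were unlike. Bop1 was at 65.8 and 54.9 CPM in the knockout and 47.4 and 46.4 CPM in the control, 1.30-fold higher (adjusted p = 0.0182). That call was lost without the filter on low counts (adjusted p = 0.0827) and without knockout replicate 1, control replicate 1 or control replicate 2. Bop1 also shares 50 exon bases with Mroh1 on the opposite strand, which was 1.61-fold higher. Wdr12 and Pes1 had log2 fold changes of 0.32 (SE 0.16) and 0.10 (SE 0.10), and Nop16 and Noc2l, other assembly factors, of 0.28 (SE 0.13) and 0.05 (SE 0.09), and none of these 4 passed. Of 38 other large subunit genes, 16 rose, 3 fell and 19 did not pass. The shares were 42.1% that rose and 7.89% that fell, against 25% and 24.6% of all tested genes. Without the filter on low counts 14 of the 38 rose. Their median log2 fold change was 0.27, and 0.23 and 0.29 without control replicate 1 and 2. Noc3l, a partner of Noc2l, was at 11.97 and 13.98 CPM in the knockout and 5.61 and 5.14 CPM in the control, 2.44-fold higher, and Nip7 rose 1.84-fold. Nop53 fell to 124 and 118 CPM in the knockout, against 244 and 229 CPM in the control, and Nsa2 to 97.5 and 124 CPM in the knockout, against 164 and 174 CPM in the control.

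The abundant nucleolar proteins moved in opposite directions. Npm1 (nucleophosmin), which builds the outer layer of the nucleolus, was at 138.8 and 179.5 CPM in the knockout libraries, against 214 and 211 CPM in the control libraries. Both knockout libraries were lower but differed from each other by 25.5% of their mean (log2 fold change -0.41, SE 0.11, adjusted p = 0.0115). Without the filter on low counts the adjusted p was 0.0679. Npm1 has processed pseudogenes with near-identical sequence, so its reads may be split among them and the value is uncertain. Ncl (nucleolin), which binds the precursor RNA, was at 175 and 187 CPM in the knockout and 157 and 145 CPM in the control, 1.21-fold higher (adjusted p = 0.0254). Ddx21, a helicase that joins transcription to processing, was at 53.9 and 63.7 CPM in the knockout and 45.0 and 47.6 CPM in the control, 1.28-fold higher (adjusted p = 0.0185). Ncl and Ddx21 both lost their call without the filter on low counts (adjusted p = 0.0564 and 0.0701) and without control replicate 1 or control replicate 2. Gnl3 (nucleostemin), a GTPase of stem and dividing cells, was at 19.6 and 27.0 CPM in the knockout and 9.90 and 9.35 CPM in the control. It was 2.44-fold higher (log2 fold change 1.29, SE 0.16, adjusted p = 6.42e-05), close to Polr3d, and its knockout libraries differed by 31.8% of their mean. The log2 fold change of Gnl3 was 1.07 without knockout replicate 2 and 1.48 without knockout replicate 1.

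Spread within a group was usually small. The libraries of a group differed, in the median member, by 7.67% of their mean in the knockout and 7.18% in the control. The knockout libraries differed by at least 20% in 7 members, Polr3g, Nop58, Dkc1, Gar1, Wdr75, Npm1 and Gnl3, and knockout replicate 2 was the higher library in all 7. In the control only Nol6 and Wdr12 differed that much. Across the 38 members, the log2 fold change had a Pearson r of -0.41 and a Spearman rho of -0.5 with the control level, a description in which the control level enters both axes and genes are not independent replicates.

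Myc and genes of cell division did not follow the members. Myc itself was at 13.3 and 15.6 CPM in the knockout libraries, against 35.6 and 31.1 CPM in the control libraries, 43.7% of the control level (log2 fold change -1.19, SE 0.13, adjusted p = 1.69e-05). All 24 cell division genes fell, with a median log2 fold change of -1.85, and 23 of them fell when either control replicate or knockout replicate 1 was left out. They summed to 575 and 644 CPM in the knockout, against 2029 and 1964 CPM in the control. Of 11 genes of the Myc network 2 rose, 3 fell and 6 did not pass, with log2 fold changes from -2.16 to 2.87. The shares were 18.2% that rose and 27.3% that fell, against 25% and 24.6% of all tested genes. Mxd4, which competes with Myc for its partner Max, fell to 11.1 and 10.1 CPM in the knockout, against 48.4 and 47.3 CPM in the control, while Mga, another Max partner, rose 2.84-fold and Mxd1 did not pass (adjusted p = 0.19). Of 12 tested snoRNA host genes, whose introns carry snoRNAs, none rose and 5 fell, with a median log2 fold change of -0.42. Snhg6 was at 15.6 and 19.4 CPM in the knockout and 32.5 and 33.2 CPM in the control, and Zfas1 at 10.6 and 13.3 CPM in the knockout and 19.1 and 16.6 CPM in the control. Without knockout replicate 1, 2 host genes rose and 3 fell, with a median of -0.23, and without knockout replicate 2, 0 rose and 7 fell, with a median of -0.51. Without control replicate 1, 2 fell, and without control replicate 2, 3 fell. Of 14 genes of the RNA exosome, which trims precursor ends, 1 rose, 4 fell and 9 did not pass. The shares were 7.14% that rose and 28.6% that fell, against 25% and 24.6% of all tested genes. Log2 fold changes ran from -4.79 to 0.37. The median was 0.11, and 0.15 and 0.08 without control replicate 1 and 2.

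Rises were also seen outside polymerases I and III. Of 7 subunits found only in polymerase II, 6 rose (85.7%), where 25% of all tested genes rose. Without control replicate 1, 2 rose, and without control replicate 2, 3 rose. Polr2a, its largest subunit, was at 131 and 129 CPM in the knockout libraries, against 68.3 and 55.6 CPM in the control libraries, 2.12-fold higher (adjusted p = 1.1e-05). Of 5 subunits that all 3 polymerases share, Polr2f and Polr2h rose, 1.44-fold and 1.42-fold, and 3 did not pass; without either control replicate in turn 1 of the 5 rose. The median log2 fold change was 0.37 over the polymerase II subunits and 0.25 over the 6 polymerase I members, and no test of a difference between these groups of genes was made.

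**Figure D4:**
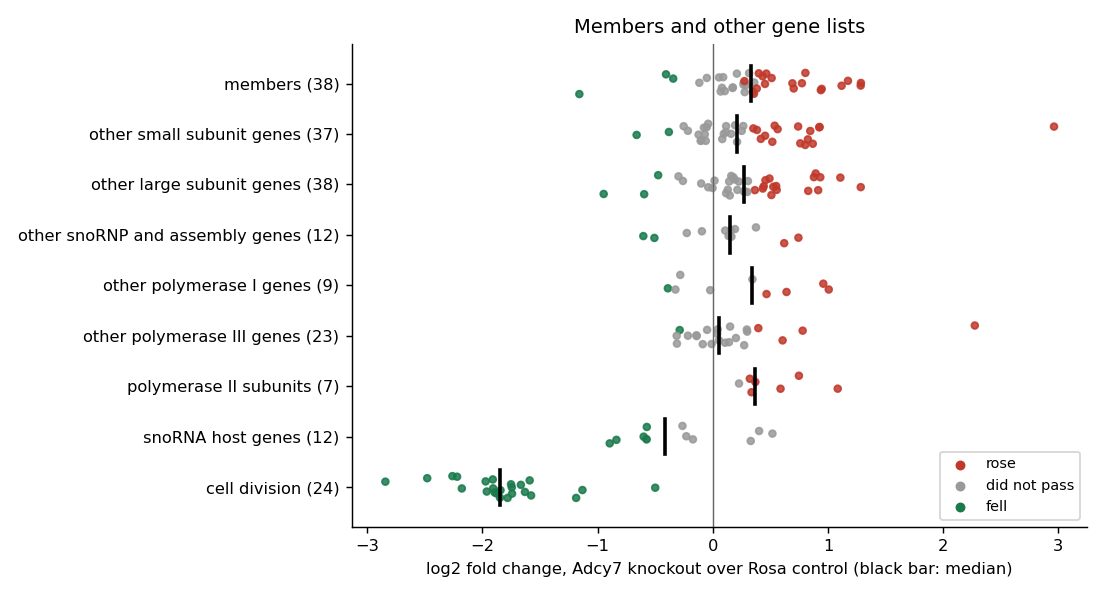
Fold change on the log2 scale, Adcy7 knockout over Rosa control, of each tested gene in the member list and in other lists, with the number of genes in brackets, the median as a black bar and colours for the outcome of the test. The members have a median of 0.33, the cell division genes of -1.85 and the snoRNA host genes of -0.42.

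RefSeq promoters were found for 30 of the 38 members, with 38 windows of 300 bases in all, since some genes have several starts. CACGTG occurred in 6 of the 38 windows (15.8%), against 9.66% of 13594 windows of tested genes and 7.15% of all 32851 windows. GGGCGG or CCGCCC, with overlapping matches counted, occurred in 28 of them (73.7%), against 59.8% of windows of tested genes and 35.7% of all windows. Of the 19 members that rose, 13 had a window, and these 13 windows held CACGTG in 3 cases and the GC box letters in 10. Among the other members the numbers were 3 and 18 of 25 windows, which came from 17 genes, so the shares by window count some genes repeatedly. The promoters of 3 members with rises that held in every setting are shown as chosen examples, with the same capitals as above. They need not represent the other windows.
Gnl3 (chr14:31019082-31019381, minus strand): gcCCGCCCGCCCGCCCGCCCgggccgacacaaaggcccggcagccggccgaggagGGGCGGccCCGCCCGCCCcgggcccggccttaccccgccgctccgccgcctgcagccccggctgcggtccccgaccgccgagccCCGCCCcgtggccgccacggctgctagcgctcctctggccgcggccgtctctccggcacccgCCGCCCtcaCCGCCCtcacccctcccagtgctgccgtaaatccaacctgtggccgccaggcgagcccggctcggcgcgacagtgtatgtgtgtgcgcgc
Nop2 (chr6:125131633-125131932, plus strand): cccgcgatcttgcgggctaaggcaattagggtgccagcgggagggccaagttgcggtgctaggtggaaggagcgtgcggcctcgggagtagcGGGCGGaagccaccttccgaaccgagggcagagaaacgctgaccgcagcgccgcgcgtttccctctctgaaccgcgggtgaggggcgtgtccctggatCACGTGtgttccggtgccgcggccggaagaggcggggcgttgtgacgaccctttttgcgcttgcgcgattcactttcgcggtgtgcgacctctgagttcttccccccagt
Rrp9 (chr9:106477059-106477358, plus strand): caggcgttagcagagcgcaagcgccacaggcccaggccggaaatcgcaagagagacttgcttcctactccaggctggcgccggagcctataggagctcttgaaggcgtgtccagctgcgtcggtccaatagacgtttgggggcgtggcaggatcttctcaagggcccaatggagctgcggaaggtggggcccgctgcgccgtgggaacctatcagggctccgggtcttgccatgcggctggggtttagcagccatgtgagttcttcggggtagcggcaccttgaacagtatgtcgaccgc
The Gnl3 window held the GC box letters 10 times, the Nop2 window held both kinds of letters once each, with CACGTG beginning 60 bases before the start, and the Rrp9 window held neither.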

How the data were processed

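Poly(A) RNA of 2 Adcy7 knockout and 2 Rosa control cultures was sequenced. Per the labels' protocols, RNA had an integrity number above 7 and library inserts averaged 300 bp (±50 bp). The deposited table holds estimated counts (expected counts) per Ensembl gene as whole numbers, with no sign of normalization. The tools named, per the submitters' processing notes, are HISAT2, StringTie, fastp and edgeR, and the build is GRCm39. Their settings and the annotation were not given in the sources used. Small values clustered on multiples of 4 (30.54% to 32.17% of counts from 1 to 40 in each library), so 1 fragment may be worth about 4 counts and the true depth may be lower than the totals.

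Symbols matched 55141 of 55401 IDs (GENCODE M21, GRCm38, also used for exon lengths and overlaps). Where IDs shared a symbol, the one with most counts kept it. Knockout columns, named KO3 and a number, were matched to titles by KO and that number. Genes passing filterByExpr (15832) were scaled by TMM and tested with edgeR 4.0.16 in R 4.3.3 (quasi-likelihood test of version 4, adjusted by Benjamini-Hochberg across the tested genes, with a threshold of 0.05 and 2 residual degrees of freedom). Standard errors are the log2 fold change divided by the root of F. CPM are per deposited library total. Alternatives were other scalings, no filter, DESeq2 1.42.0, counts divided by 4, a replicate block, each library left out, and edgeR's earlier quasi-likelihood method, the last chosen after seeing the data. Members and lists were chosen with earlier results of these data known. All members are named. From other lists up to 2 rises and 2 falls with the smallest adjusted p could be named. Adcy7, Myc, Mxd1, Maf1, Polr1d and Taf1d could be named in any case. Ccnd3 and Mroh1 were added for their overlap with members. The markers Cd68, Cma1, Gzma and Lepr were named outside this rule, as limits of the marker lists. Of 266 genes in the other lists, those with no row under the listed or older name were left out.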

Additional observations from a re-analysis of the deposited data

How the results depend on the processing

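The number of members that rose was 19, and 15 to 21 under the 8 settings that kept all 4 libraries. It ranged from 10 to 22 when 1 library was left out. The number that fell was 3. It was 1 without the filter on low counts, where 7264 more genes entered the adjustment, 3 under the other 7 settings with all libraries, and 2 to 3 with 1 library left out. The median log2 fold change of the members was 0.33, 0.32 to 0.35 under the settings with all libraries, and 0.30 to 0.39 with 1 library left out. Leaving out a library turned the sign of 6 members that had not passed. With 1 library left out, Polr1c ranged from -0.01 to 0.16, Noc2l from -0.01 to 0.12, Fbl from -0.10 to 0.00, Nop58 from -0.04 to 0.38, Dkc1 from -0.06 to 0.24 and Gar1 from -0.13 to 0.44. The sign turned without knockout replicate 1 for Polr1c and Noc2l, and without knockout replicate 2 for the other 4. Same-numbered libraries did not deviate together over the tested genes (correlation of deviations 0.0148). With 2 libraries a group this cannot decide whether the numbers pair the samples, and the labels do not state it. With a replicate block 21 members rose, 3 fell and the median was 0.34, and Rrn3 and Nhp2 passed (adjusted p = 0.048 and 0.0451). With 2 libraries a group, some changes of about 2 standard errors (Rrn3, Noc4l, Nhp2 and Wdr12) did not pass.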
